A study of Mus musculus with 28 samples.

Results

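Chemokine signalling was examined in cultured peripheral neural stem cells (pNSCs), brain neural stem cells (NSCs), neural crest stem cells (NCSCs) and tissue cells of the mouse. The genes were chosen by name: every row of the count table named as a CC or CXC chemokine, *Cx3cl1*, a CC or CXC receptor, *Cx3cr1* or an atypical chemokine receptor. This gave 60 of the 28244 genes, of which 39 were ligands, 17 were signalling receptors and 4 were atypical receptors. Family members under other kinds of symbol, such as *Xcl1*, *Pf4*, *Ppbp*, *Xcr1* and *Ccrl2*, were not chosen by this rule and were counted with the other genes of the pathway. PolyA-selected RNA of 28 samples in 11 groups had been sequenced in bulk. The study asked whether stem cells grown from tissues outside the brain resemble brain NSCs and differ from NCSCs and from the tissue they came from.

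The Nes-GFP experiment held 2 samples of each of 5 groups. The labels of these groups name no reporter, and they were placed with this experiment because their groups and replicate numbers match the study's description of it. As described there, the Tail-pNSC, Lung-pNSC and Brain-NSC samples came from mice carrying a GFP transgene driven by Nestin regulatory elements, with the tail cells from postnatal and the lung cells from adult animals. The Tail and Lung samples were tissue cells, whose age the study does not state separately. The Sox2-GFP experiment held 3 samples each of Sox2-GFP brain NSCs and of Sox2-GFP lung pNSCs from postnatal lung, in which GFP was knocked into *Sox2*. It had no lung sample of its own and was compared with the same 2 Lung samples. In that comparison experiment, and possibly age, cannot be told apart from cell type. The Wnt1Cre-mTmG experiment held 3 samples each of Wnt1Cre-mTmG brain NSCs, Wnt1Cre-mTmG Tail pNSCs, Wnt1Cre-mTmG DRG pNSCs and DRG NCSCs. Wnt1-Cre, active in neural crest cells, switches the R26-mTmG reporter from Tomato to GFP, and the pNSC lines used were Tomato+ and GFP-. The DRG (dorsal root ganglion) NCSCs came from adult wild-type mice, whereas the tail and DRG pNSCs compared with them came from postnatal tissue. The labels give the cell type of the NCSCs as NSC. All labels give the strain as C57BL/6, whereas the methods describe CD1 and mixed CD1 and C3H backgrounds. Postnatal tissue was taken at about day 1 to 5 and adult tissue at about 4 to 6 weeks. The pNSC lines were grown for 3 weeks on gelatin in NSC medium with EGF and bFGF, picked by hand as single clusters and usually clonal, and brain NSCs came from whole brain. The study describes its replicates as biological, and the labels do not say whether they came from separate animals or lines. Standard errors and adjusted p-values below thus measure the spread among these samples, which may be less than that among animals or lines. According to its methods, brain NSCs mostly came from the same mice as the pNSCs compared with them, but the labels do not tie single samples to mice.

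Chemokines are small secreted proteins that direct the movement of cells along a gradient. Homeostatic chemokines such as *Cxcl12* are made steadily and guide progenitors, including neural ones, through the G protein-coupled receptor *Cxcr4*, while inflammatory chemokines such as *Ccl2* and *Cxcl1* are switched on by cytokines, in part through NF-kB, and recruit monocytes and neutrophils. Atypical receptors bind chemokines without G protein signalling and take them up, and *Ackr3* in this way sets the amount of *Cxcl12* outside the cell. *Cx3cl1*, or fractalkine, is made by neurons and other brain cells and is held on the membrane until it is cut off, and its receptor *Cx3cr1* marks microglia and monocytes.

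Promoter sequences are shown for 3 inflammatory ligands that lay at or near 0 in NSC and pNSC cultures and were present in NCSCs and tissue cells, and for the pair of *Cxcl12* receptors, which varied among the cultures. Each is 300 bases of the RefSeq annotation of GRCm38.p6, from 250 bases before the transcription start to 50 bases after it, written 5′ to 3′ on the gene's own strand. In the promoters of *Cxcl1* (chr5:90890995-90891294, plus strand), *Cxcl2* (chr5:90903649-90903948, plus strand) and *Cxcl10* (chr5:92348840-92349139, minus strand) capitals mark matches to the NF-kB consensus on either strand, and overlapping matches are joined.
Cxcl1: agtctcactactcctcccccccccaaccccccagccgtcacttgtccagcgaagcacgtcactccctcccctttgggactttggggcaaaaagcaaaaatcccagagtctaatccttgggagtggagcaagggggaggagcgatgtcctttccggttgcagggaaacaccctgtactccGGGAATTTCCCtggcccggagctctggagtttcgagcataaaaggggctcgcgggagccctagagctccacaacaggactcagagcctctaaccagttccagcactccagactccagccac
Cxcl2: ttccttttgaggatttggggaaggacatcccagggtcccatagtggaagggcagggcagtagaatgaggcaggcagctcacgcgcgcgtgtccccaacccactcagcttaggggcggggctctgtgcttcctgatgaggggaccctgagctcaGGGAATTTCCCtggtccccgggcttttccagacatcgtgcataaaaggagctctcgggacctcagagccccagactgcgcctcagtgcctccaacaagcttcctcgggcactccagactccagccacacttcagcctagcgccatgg
Cxcl10: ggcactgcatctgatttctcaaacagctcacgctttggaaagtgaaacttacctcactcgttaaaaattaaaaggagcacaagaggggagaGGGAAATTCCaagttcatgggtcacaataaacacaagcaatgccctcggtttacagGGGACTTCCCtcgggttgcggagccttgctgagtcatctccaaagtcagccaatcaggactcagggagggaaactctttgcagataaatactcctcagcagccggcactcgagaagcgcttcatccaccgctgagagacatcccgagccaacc

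The match began 71 bases before the start in *Cxcl1*, 97 bases before it in *Cxcl2*, and 159 and 103 bases before it in *Cxcl10*. Of the 60 members, 43 had a promoter in this table, and 10 of the 43 genes held a match in at least 1 of their promoters. Of all 32851 promoters of the same length, counted singly and not by gene, 4.51% held one. A match describes the letters in this window and is not a measured binding site. The promoters of *Cxcr4* (chr1:128592250-128592549, minus strand) and *Ackr3* (chr1:90203730-90204029, plus strand) held no NF-kB match. They are shown with CG dinucleotides in capitals.
Cxcr4: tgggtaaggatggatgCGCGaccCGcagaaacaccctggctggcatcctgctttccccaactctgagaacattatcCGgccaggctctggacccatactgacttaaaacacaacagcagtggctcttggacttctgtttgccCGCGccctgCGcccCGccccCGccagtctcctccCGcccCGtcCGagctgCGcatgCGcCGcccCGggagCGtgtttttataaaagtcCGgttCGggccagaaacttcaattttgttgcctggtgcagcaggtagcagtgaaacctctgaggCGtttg
Ackr3: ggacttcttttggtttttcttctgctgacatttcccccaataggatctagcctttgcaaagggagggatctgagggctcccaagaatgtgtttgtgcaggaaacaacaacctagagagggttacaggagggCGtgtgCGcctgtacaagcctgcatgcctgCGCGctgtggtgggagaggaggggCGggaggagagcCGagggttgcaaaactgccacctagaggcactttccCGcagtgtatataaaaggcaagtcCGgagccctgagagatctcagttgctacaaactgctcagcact

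The *Cxcr4* promoter held 20 CG dinucleotides, more than 73.5% of all promoters, and the *Ackr3* promoter held 8, more than 51.4%. The median over all promoters was 7.

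Total counts per library ran from 9808246 to 22637031, and the brain NSCs and DRG pNSCs of the Wnt1Cre-mTmG experiment were the shallowest, at 9808246 to 11431445. Levels are given as cpm (counts scaled to a common library total) with TMM scaling over all 28 samples. A library can show a gene from 3 counts on, a floor of 0.13 to 0.296 cpm depending on the library. A value above 0 but under the floor of its own library is a count of 1 or 2 reads. DRG NCSC replicate 3 stood apart from its group, with a mean chi-square per gene of 18.5 and 23.05 against its other 2 samples. All other replicate pairs lay at 1.09 to 3.02, where counting noise alone gives 1. Beyond counting noise, the fits of the experiments put the common coefficient of variation between replicates at 0.0155 to 0.048. Markers of other cells also differed between groups. The summed level of 17 leukocyte markers was 5103 to 5121 cpm in Lung, 701 to 728 in DRG NCSCs, 139 in each Tail sample and 1.79 to 7.37 in the 21 libraries of NSCs and pNSCs, where 7 to 11 of the 17 were at 0 in each group. The summed level of 8 microglia markers was 149.98 to 155 cpm in DRG NCSCs and 182 to 194 in Lung, 101 to 106 in Tail, 14.2 to 17.1 in Wnt1Cre-mTmG Tail pNSCs and 0.133 to 2.80 in the other cultures. In those Tail pNSCs *Tmem119* alone made up nearly all of it, with a mean of 15.8 cpm, while 4 of the 8 were at 0 and *P2ry12*, *Aif1* and *C1qb* held 4, 9 and 1 counts over the 3 libraries. The 9 fibroblast markers summed to 73818 to 75719 cpm in Tail, 7232 to 7318 in DRG NCSCs, 4747 to 4856 in Lung, 558 to 569 in Wnt1Cre-mTmG Tail pNSCs and 36.97 to 95.2 in the other cultures. The labelled NSC and pNSC groups held 7 neural stem cell markers at a summed 4522 to 6519 cpm, and the DRG NCSCs held 7 neural crest and Schwann cell markers at 4294 to 4404 cpm against 4.11 to 77.3 in the NSC and pNSC groups. In bulk RNA, fewer cells of a type and less RNA per cell cannot be told apart.

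A minority of the chemokine and receptor genes rose above the floor in NSCs and pNSCs of any origin. Of the 60 members, 10 to 16 had more than 3 counts in a library of NSCs or pNSCs. This compares with 31 to 32 in DRG NCSCs, 36 to 38 in Tail and 50 to 51 in Lung. The share of all genes that passed the same cut was not taken, so these counts are not read against it. Over the 11 groups, 26 members reached a group mean of 10 cpm, 20 peaked between 1 and 10 cpm, 9 stayed below 1 cpm and 5 had no counts at all. Per kilobase of exon, which allows levels of different genes to be compared, *Cx3cl1* ranked first in 7 of the 8 groups of NSCs and pNSCs, at 10.3 to 55.7 cpm per kb. In the Sox2-GFP lung pNSCs *Cxcl14* ranked first at 14.5 cpm per kb, ahead of *Cx3cl1* at 10.7. Other genes led elsewhere: *Ccl2* in DRG NCSCs at 54.3 cpm per kb, *Cxcl15* in Lung at 652 and *Cxcl14* in Tail at 247.

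**Figure D1:**
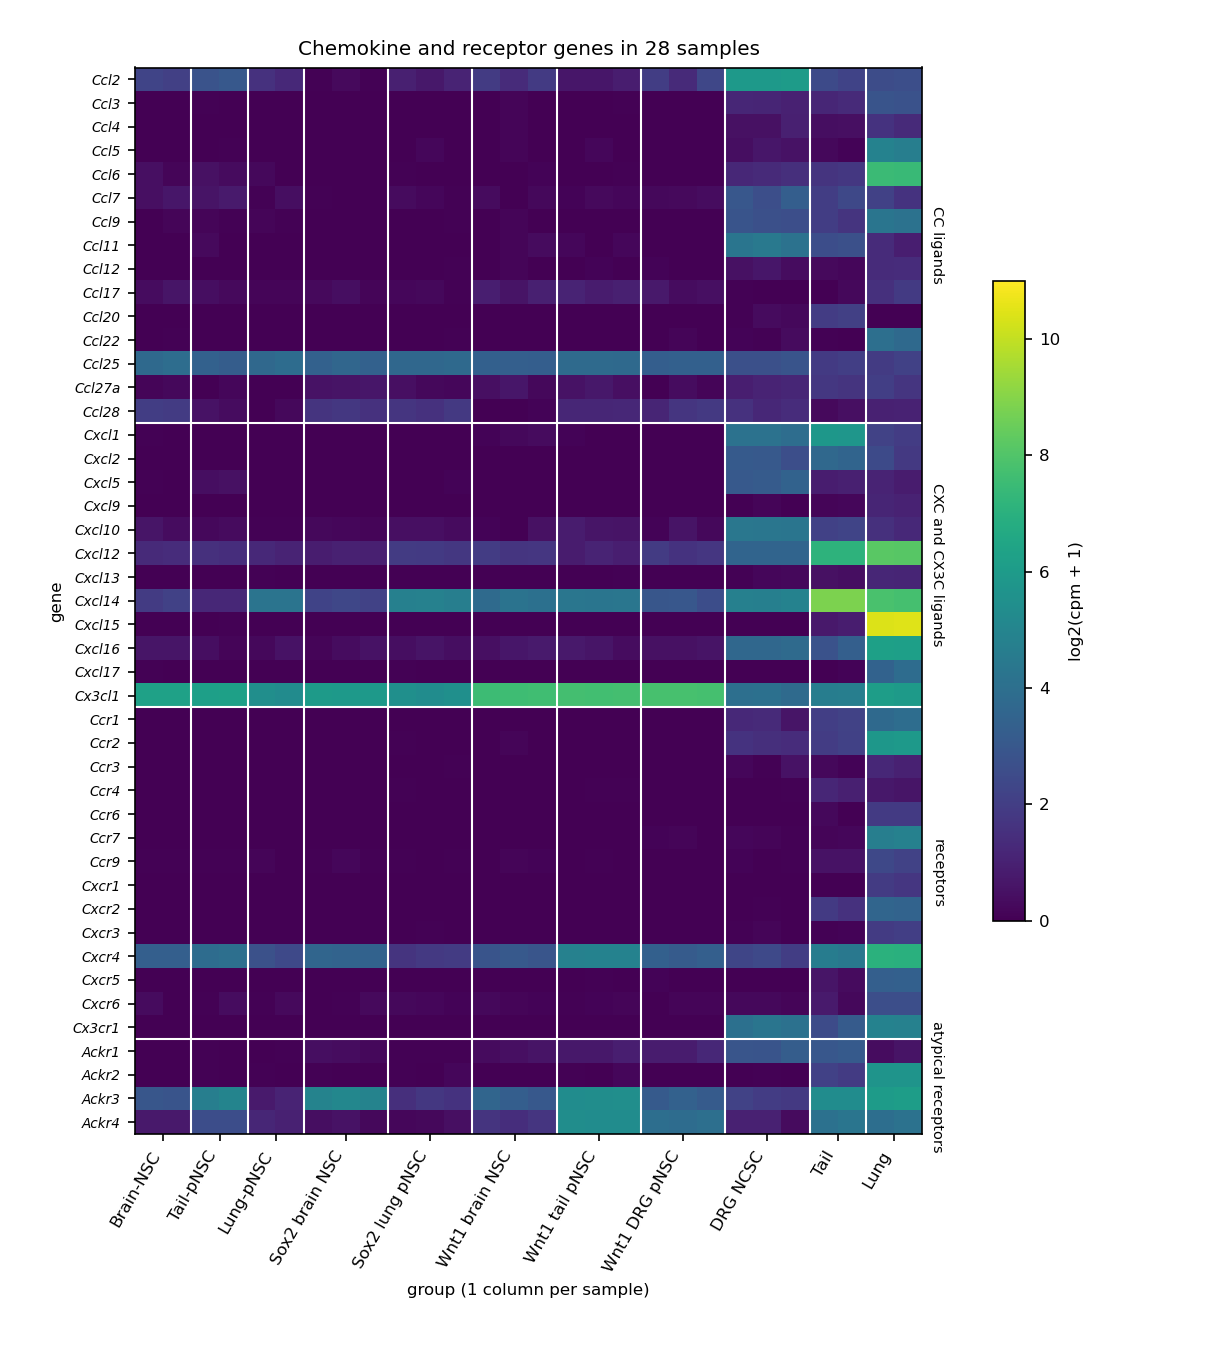
Level of 45 chemokine and receptor genes that reached a mean of 1 cpm in at least 1 group (rows) in each of the 28 samples (columns), as log2(cpm + 1). A few genes, among them *Cx3cl1*, *Cxcl14*, *Ccl25*, *Cxcr4* and *Ackr3*, carry signal in the NSC and pNSC columns, and most rows carry signal only in the DRG NCSC, Tail and Lung columns.

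Differences were tested with edgeR's quasi-likelihood test, and a gene counts as called at a Benjamini-Hochberg adjusted p under 0.05 with a log2 fold change of at least 1 in size. Every log2 fold change below comes from this fit and is followed by its standard error and adjusted p over all genes tested. Between pNSCs and brain NSCs few members were called. In Tail-pNSC against Brain-NSC 3 of 49 tested members were higher and 2 lower, where 4.31% and 6.59% of all tested genes were called. In Lung-pNSC against Brain-NSC, which shares the Brain-NSC samples, 1 was higher and 6 lower, beside 4.56% and 4.15% of all genes, and 1 was higher and 3 lower with only these 2 groups in the fit. In Sox2-GFP lung pNSCs against Sox2-GFP brain NSCs 4 of 47 were higher and 3 lower, beside 5.76% and 9.99%. Of 27 tested members, 5 were higher and 2 lower in Wnt1Cre-mTmG Tail pNSCs against Wnt1Cre-mTmG brain NSCs, beside 9.16% and 9.05% of all genes. For Wnt1Cre-mTmG DRG pNSCs against the same brain NSCs 3 were higher and 2 lower, beside 3.12% and 6.41%, and 3 members in all were called without brain NSC replicate 2 or without DRG pNSC replicate 3. Most tested members passed the filter on low counts through the Lung, Tail or NCSC samples and lay at or near 0 on both sides of these comparisons.

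Against tissue cells and NCSCs most of the members tested were lower in pNSCs. In Tail-pNSC against Tail 33 of 49 members were lower and 2 higher, where 32.6% of all genes were lower and 14.1% higher. In Lung-pNSC against Lung 46 of 49 were lower and 1 higher, beside 34.9% and 20.2%. Of 47 members, 44 were lower and 2 higher in Sox2-GFP lung pNSCs against the same Lung samples, beside 34.9% and 21.3%. Against DRG NCSCs, 18 of 27 members were lower and 6 higher in Wnt1Cre-mTmG Tail pNSCs, beside 22.6% and 15.3% of all genes. In Wnt1Cre-mTmG DRG pNSCs 20 were lower and 5 higher than in the same NCSCs, beside 23.3% and 15.1%. The DRG NCSCs against Wnt1Cre-mTmG brain NSCs gave 20 higher and 4 lower members, beside 22.1% and 14.8%, and 18 higher and 3 lower without NCSC replicate 3. In all of these comparisons many members entered the test only because they were high in Lung, in Tail or in the NCSCs, so that they had to differ, and nothing is read from their counts against the shares of all genes. Age also differed between the NCSCs and the pNSCs, and its part was not tested. Between the tissues, 7 members were higher in Tail and 31 in Lung, where 20.5% and 22.9% of all genes were called that way. The tissue samples may also differ in age, and its part was not tested. The median of all tested genes lay at -0.12 to -0.16 (log2) in the comparisons of pNSCs with tissue cells, and values of members there are to be read against that shift.

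*Cxcl12* (chr6:117168535-117181367, plus strand) encodes the homeostatic ligand of Cxcr4 and Ackr3. It was a tissue gene in these data, with 289 and 281 cpm in the Lung samples and 137 and 139 in the Tail samples. The DRG NCSCs held 10.7, 10.8 and 10.6 cpm, and the libraries of NSCs and pNSCs held 0.787 to 2.86, so that the 4 kinds of sample did not overlap. It was lower in pNSCs than in tissue cells with a log2 fold change of -6.36 (SE 0.09, adjusted p too small to be represented) in Tail-pNSC, -7.85 (SE 0.09, adjusted p too small to be represented) in Lung-pNSC and -6.78 (SE 0.06, adjusted p too small to be represented) in Sox2-GFP lung pNSCs. The fibroblast sums given above and the sums of 9 endothelial markers, at 6704 to 6830.4 cpm in Lung, 1291 to 1330.4 in Tail and 8.24 to 27.4 in the NSC and pNSC libraries, moved the same way, and their part in this was not tested.

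Among the stem cell cultures *Cxcl12* differed in 2 comparisons with brain NSCs, in opposite directions. The Sox2-GFP lung pNSCs held 2.78, 2.65 and 2.49 cpm against 0.865, 0.995 and 0.975 in Sox2-GFP brain NSCs, a log2 fold change of 1.46 (SE 0.21, adjusted p = 5.36e-12). The Wnt1Cre-mTmG Tail pNSCs held 0.787, 1.15 and 0.906 cpm against 2.86, 2.22 and 2.37 in their brain NSCs, at -1.38 (SE 0.21, adjusted p = 1.67e-05). In neither case did the groups overlap. In the Sox2-GFP comparison the fibroblast marker sum was 69.5 to 74.99 against 52.9 to 53.6 cpm, with 1 marker called higher and 2 lower. The endothelial sum was 11.5 to 12.4 against 8.24 to 9.56 cpm, with 1 called higher and 0 lower. In Wnt1Cre-mTmG Tail pNSCs, where *Cxcl12* was lower, 7 of 9 fibroblast and 3 of 7 tested endothelial markers were called higher. The part of these markers in the levels of *Cxcl12* was not tested. It was not called in Tail-pNSC (1.89 and 1.67 cpm), Lung-pNSC (1.38 and 1.12) or Wnt1Cre-mTmG DRG pNSCs (2.71, 2.07 and 2.31), each against its brain NSCs, of which Brain-NSC held 1.47 and 1.61 cpm. The NCSCs exceeded the Wnt1Cre-mTmG brain NSCs by 2.12 (SE 0.14, adjusted p = 1.72e-10).

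*Cxcl14* (chr13:56288643-56296551, minus strand) encodes an orphan homeostatic chemokine of epithelia. The Tail samples held 455 and 449 cpm and the Lung samples 229 and 215, more than any library of cultured cells. Both sets of lung pNSCs stood above their brain NSCs. Lung-pNSC held 17.9 and 17.9 cpm against 2.79 and 3.36 in Brain-NSC, a log2 fold change of 2.53 (SE 0.12, adjusted p = 1.25e-99), and Sox2-GFP lung pNSCs held 26.6, 27.7 and 24.95 against 3.69, 4.11 and 3.50, at 2.80 (SE 0.09, adjusted p = 1.58e-233). The samples of pNSCs and of brain NSCs did not overlap in either experiment, and the experiments used lung of different ages and separate brain NSC controls. Markers of other lung cells differed beside it, some higher and some lower. The sum of 8 lung epithelial markers was 22.5 to 25.3 cpm in Lung-pNSC against 57.5 to 61.8 in Brain-NSC, and 19.9 to 20.9 against 28.8 to 30.3 in the Sox2-GFP experiment. The 9 fibroblast markers summed to 55.6 and 59.999 against 36.97 to 37.2 cpm and to 69.5 to 74.99 against 52.9 to 53.6, with 2 called higher and 0 lower in Lung-pNSC and 1 higher and 2 lower in Sox2-GFP lung pNSCs. The 9 endothelial markers summed to 21.2 to 22.6 against 10.2 to 11.8 cpm and to 11.5 to 12.4 against 8.24 to 9.56, with 3 and 1 called higher. Their part in the level of *Cxcl14* was not tested.

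Outside the lung the pattern of *Cxcl14* was different. Tail-pNSC held 1.31 and 1.32 cpm, below Brain-NSC with a log2 fold change of -1.22 (SE 0.22, adjusted p = 5.07e-07). The Wnt1Cre-mTmG Tail pNSCs held 18.8, 18.5 and 19.1 cpm against 12.8, 17.2 and 15.8 in their brain NSCs and were not called (log2 fold change 0.31, SE 0.10, adjusted p = 0.0118). The DRG pNSCs held 6.61, 6.90 and 5.001 cpm, below the same brain NSCs with a log2 fold change of -1.30 (SE 0.13, adjusted p = 3.15e-07), and the DRG NCSCs held 26.8, 25.8 and 28.4. Brain NSCs of the Wnt1Cre-mTmG experiment thus held more *Cxcl14* than those of the other experiments, a difference that was not tested. Against the tissue of origin it was lower with a log2 fold change of -8.50 (SE 0.08, adjusted p too small to be represented) in Tail-pNSC, -3.67 (SE 0.05, adjusted p too small to be represented) in Lung-pNSC and -3.09 (SE 0.04, adjusted p too small to be represented) in Sox2-GFP lung pNSCs.

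*Cx3cl1* (chr8:94772009-94782427, plus strand), the membrane-held ligand of Cx3cr1, was the member with the highest level per kilobase in most stem cell cultures, as given above. The brain NSCs held 77.3 and 76.5 cpm in Brain-NSC, 61.9, 60.97 and 58.8 in Sox2-GFP and 184, 191 and 197 in Wnt1Cre-mTmG mice. Tail-pNSC held 72.6 and 75.6 cpm, Wnt1Cre-mTmG Tail pNSCs 209, 205 and 211 and Wnt1Cre-mTmG DRG pNSCs 221, 222 and 214. None of these 3 pNSC groups was called against its brain NSCs, with log2 fold changes of -0.05 (SE 0.05, adjusted p = 0.463), 0.13 (SE 0.04, adjusted p = 0.0148) and 0.20 (SE 0.04, adjusted p = 0.00154). The 2 sets of lung pNSCs were below their brain NSCs but by less than a log2 fold change of 1. Lung-pNSC held 42.9 and 38.3 cpm, a difference of -0.93 (SE 0.06, adjusted p = 3.95e-54), which passed the limit without Lung-pNSC replicate 1 (-1.01, adjusted p = 8.87e-38). Sox2-GFP lung pNSCs held 43.4, 39.96 and 42.98 cpm, at -0.53 (SE 0.04, adjusted p = 3.99e-36).

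DRG NCSCs were the culture low in *Cx3cl1*, with 15.2, 15.6 and 12.8 cpm. They lay below Wnt1Cre-mTmG brain NSCs with a log2 fold change of -3.69 (SE 0.06, adjusted p = 1.33e-19), and the Tail pNSCs and DRG pNSCs of that experiment exceeded them by 3.82 (SE 0.05, adjusted p = 5.28e-20) and 3.89 (SE 0.06, adjusted p = 6.09e-20). The Tail samples held 24.4 and 24.8 cpm and the Lung samples 67.8 and 63.4. Tail-pNSC was above Tail by 1.51 (SE 0.07, adjusted p = 5.34e-110). Lung-pNSC and Sox2-GFP lung pNSCs were not called against Lung, at -0.73 (SE 0.06, adjusted p = 6.74e-32) and -0.66 (SE 0.05, adjusted p = 1.01e-45).

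*Ccl25* (chr8:4325210-4360020, plus strand), the ligand of Ccr9 known from thymus and gut epithelium, had an even level in the cultures. The libraries of NSCs and pNSCs held 8.62 to 14.1 cpm, the NCSCs 5.46, 5.39 and 6.30, the Tail samples 2.70 and 3.06 and the Lung samples 2.72 and 3.30. It was among the few members higher in pNSCs than in tissue cells, by 1.58 (SE 0.18, adjusted p = 1.53e-17) in Tail-pNSC, 2.08 (SE 0.17, adjusted p = 9.82e-35) in Lung-pNSC and 1.97 (SE 0.14, adjusted p = 3.35e-44) in Sox2-GFP lung pNSCs. It was not called in any comparison with brain NSCs, where the log2 fold changes ran from -0.56 in Tail-pNSC to 0.51 in Wnt1Cre-mTmG Tail pNSCs among pNSCs, nor between Tail and Lung. Its exons overlap those of *Elavl1* on the opposite strand, and the strand setting of the counts is not given in the sources used here, so reads of that gene may be included. The receptor gene *Ccr9* was at 0 to 0.130 cpm in the NSC and pNSC libraries.

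**Figure D2:**
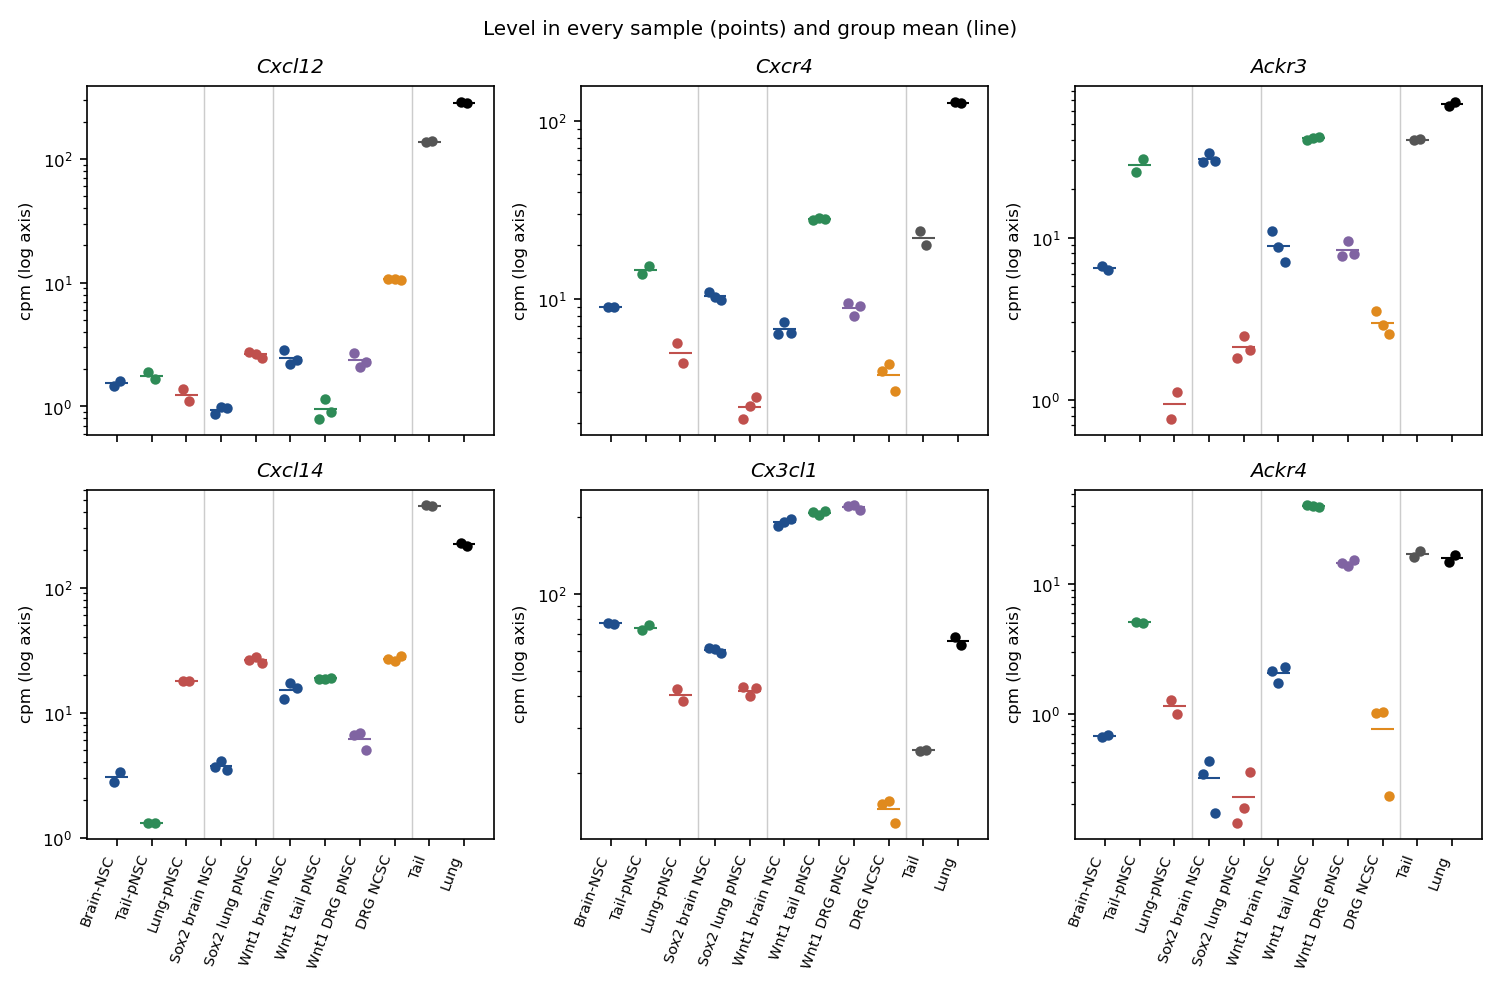
Level in cpm (log axis) of *Cxcl12*, *Cxcr4*, *Ackr3*, *Cxcl14*, *Cx3cl1* and *Ackr4* in the 11 groups. Points are samples and the line is the group mean of 2 or 3 samples. *Cxcl12* is highest in Lung and Tail, *Cx3cl1* is lowest in DRG NCSCs and Tail, and *Ackr4* is highest in Wnt1Cre-mTmG Tail pNSCs.

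*Cxcr4* (chr1:128588199-128592293, minus strand), the signalling receptor of Cxcl12, was the only signalling receptor above 1 cpm in any NSC or pNSC group. The highest level was in Lung, at 128 and 125 cpm, and Tail held 23.9 and 20.2. The brain NSCs held 8.98 and 8.96 cpm in Brain-NSC, 10.95, 10.2 and 9.87 in Sox2-GFP and 6.34, 7.45 and 6.42 in Wnt1Cre-mTmG mice. The pNSC groups lay on both sides of these values. Wnt1Cre-mTmG Tail pNSCs, at 27.6, 28.5 and 28.1 cpm, exceeded their brain NSCs by 2.06 (SE 0.10, adjusted p = 7.87e-12). Sox2-GFP lung pNSCs, at 2.11, 2.51 and 2.80 cpm, were below theirs with a log2 fold change of -2.06 (SE 0.12, adjusted p = 1.44e-65). In both comparisons the groups did not overlap. In the Tail pNSCs 7 of 9 fibroblast and 3 of 7 tested endothelial markers were also called higher than in brain NSCs. The neural crest and Schwann cell marker sum was 11.9 to 12.4 cpm in Sox2-GFP lung pNSCs against 71.5 to 77.3 in their brain NSCs. Of 6 of these markers tested, 4 were called lower and 0 higher. The part of any of these markers in the level of *Cxcr4* was not tested.

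The other 3 comparisons of *Cxcr4* with brain NSCs were not called. Tail-pNSC held 13.8 and 15.3 cpm, at 0.70 (SE 0.11, adjusted p = 2.03e-09), and Wnt1Cre-mTmG DRG pNSCs held 9.49, 7.98 and 9.14, at 0.40 (SE 0.13, adjusted p = 0.016). Lung-pNSC held 5.64 and 4.35 cpm, at -0.84 (SE 0.14, adjusted p = 1.36e-08), which passed the limit without Lung-pNSC replicate 1 (-1.05, adjusted p = 1.48e-07). The DRG NCSCs held 3.94, 4.30 and 3.03 cpm. Against tissue cells *Cxcr4* was lower with a log2 fold change of -4.68 (SE 0.09, adjusted p too small to be represented) in Lung-pNSC and -5.69 (SE 0.07, adjusted p too small to be represented) in Sox2-GFP lung pNSCs, beside leukocyte marker sums of 5103 to 5121 cpm in Lung, and not called in Tail-pNSC against Tail (log2 fold change -0.69, SE 0.10, adjusted p = 2.3e-12).

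*Ackr3* (chr1:90203980-90216751, plus strand), the scavenging receptor of Cxcl12, differed from brain NSCs in opposite directions in tail and lung pNSCs. Tail-derived pNSCs were above brain NSCs in both experiments that had them. Tail-pNSC held 25.4 and 30.3 cpm against 6.70 and 6.33 in Brain-NSC, a log2 fold change of 2.10 (SE 0.11, adjusted p = 3.91e-83), and Wnt1Cre-mTmG Tail pNSCs held 39.7, 41.2 and 41.9 against 10.9, 8.71 and 7.10, at 2.21 (SE 0.11, adjusted p = 1.02e-11). Lung-derived pNSCs were below brain NSCs in both experiments that had them. Lung-pNSC held 0.759 and 1.12 cpm, at -2.82 (SE 0.23, adjusted p = 1.92e-34), and Sox2-GFP lung pNSCs held 1.82, 2.46 and 2.04 against 28.99, 32.99 and 29.7 in Sox2-GFP brain NSCs, at -3.86 (SE 0.10, adjusted p too small to be represented). In none of these 4 comparisons did the samples overlap. The DRG pNSCs, at 7.71, 9.56 and 7.89 cpm, were not called (log2 fold change -0.09, SE 0.15, adjusted p = 0.662), and the NCSCs held 3.52, 2.88 and 2.56 cpm, below Wnt1Cre-mTmG brain NSCs with a log2 fold change of -1.54 (SE 0.16, adjusted p = 8.03e-08).

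In the tissue samples *Ackr3* was at 39.6 and 40.2 cpm in Tail and 64.5 and 68.5 in Lung. Tail-pNSC was not called against Tail, at -0.60 (SE 0.08, adjusted p = 1.1e-13), while Lung-pNSC and Sox2-GFP lung pNSCs were below Lung with a log2 fold change of -6.19 (SE 0.14, adjusted p too small to be represented) and -4.99 (SE 0.09, adjusted p too small to be represented). The fibroblast marker sum was higher in both sets of tail pNSCs than in their brain NSCs, at 92.1 to 95.2 against 36.97 to 37.2 cpm and 558 to 569 against 67.01 to 72.6 cpm, with 4 and 7 of the 9 markers called higher. In Lung-pNSC 2 were called higher than in Brain-NSC, and in Sox2-GFP lung pNSCs 1 was higher and 2 were lower than in their brain NSCs. The endothelial marker sum was 22.00 to 22.7 against 10.2 to 11.8 cpm in Tail-pNSC and 13.3 to 15.2 against 11.6 to 14.7 cpm in Wnt1Cre-mTmG Tail pNSCs, with 3 of 9 and 3 of 7 tested markers called higher and 0 lower. The neural crest and Schwann cell marker sum was 11.9 to 12.4 cpm in Sox2-GFP lung pNSCs against 71.5 to 77.3 in their brain NSCs. There 4 of 6 tested markers were called lower and 0 higher, whereas 1 was higher and 0 lower in Lung-pNSC against Brain-NSC. The part of any of these marker sets in the levels of *Ackr3* was not tested.

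*Ackr4* (chr9:104084157-104126933, minus strand) encodes a scavenger of Ccl19, Ccl21 and Ccl25. It was highest in Wnt1Cre-mTmG Tail pNSCs, at 40.7, 40.2 and 39.3 cpm, above the Tail samples at 16.3 and 18.1 and the Lung samples at 14.9 and 16.9. Against Wnt1Cre-mTmG brain NSCs, with 2.14, 1.74 and 2.28 cpm, those Tail pNSCs were higher by 4.28 (SE 0.15, adjusted p = 1.11e-13), and the DRG pNSCs, with 14.7, 13.8 and 15.4 cpm, by 2.82 (SE 0.19, adjusted p = 1.43e-09). Tail-pNSC held 5.14 and 5.02 cpm against 0.659 and 0.682 in Brain-NSC, at 2.91 (SE 0.27, adjusted p = 4.3e-25). The pNSCs from tail and DRG were thus above brain NSCs in each comparison, without overlap of samples. The fibroblast marker sum was likewise higher in both sets of tail pNSCs than in their brain NSCs, as given for *Ackr3*, while in the DRG pNSCs it was 73.2 to 74.6 against 67.01 to 72.6 cpm, with 1 of the 9 markers called higher and 6 lower. The endothelial marker sum was 24.9 to 27.4 against 11.6 to 14.7 cpm in the DRG pNSCs, with 2 of 7 tested markers called higher and 0 lower, and that of the tail pNSCs is given with *Ackr3*. Their part in the levels of *Ackr4* was not tested. In the lung comparisons it was not called: Lung-pNSC held 1.28 and 1.005 cpm, at 0.77 (SE 0.38, adjusted p = 0.102), and Sox2-GFP lung pNSCs 0.144, 0.186 and 0.355 against 0.346, 0.432 and 0.172, at -0.49 (SE 0.52, adjusted p = 0.414).

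Against tissue cells *Ackr4* was lower with a log2 fold change of -1.84 (SE 0.15, adjusted p = 2.01e-36) in Tail-pNSC, -3.81 (SE 0.20, adjusted p = 3.97e-83) in Lung-pNSC and -6.08 (SE 0.22, adjusted p = 4.6e-173) in Sox2-GFP lung pNSCs. The NCSCs held 1.02, 1.04 and 0.233 cpm, with replicate 3 apart from the other two, and were below Wnt1Cre-mTmG brain NSCs with a log2 fold change of -1.35 (SE 0.30, adjusted p = 0.000592). Without DRG NCSC replicate 3 this was -0.99, adjusted p = 0.000524 and fell short of the limit on the fold change. Its exons overlap those of *Acad11* on the opposite strand.

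**Figure D3:**
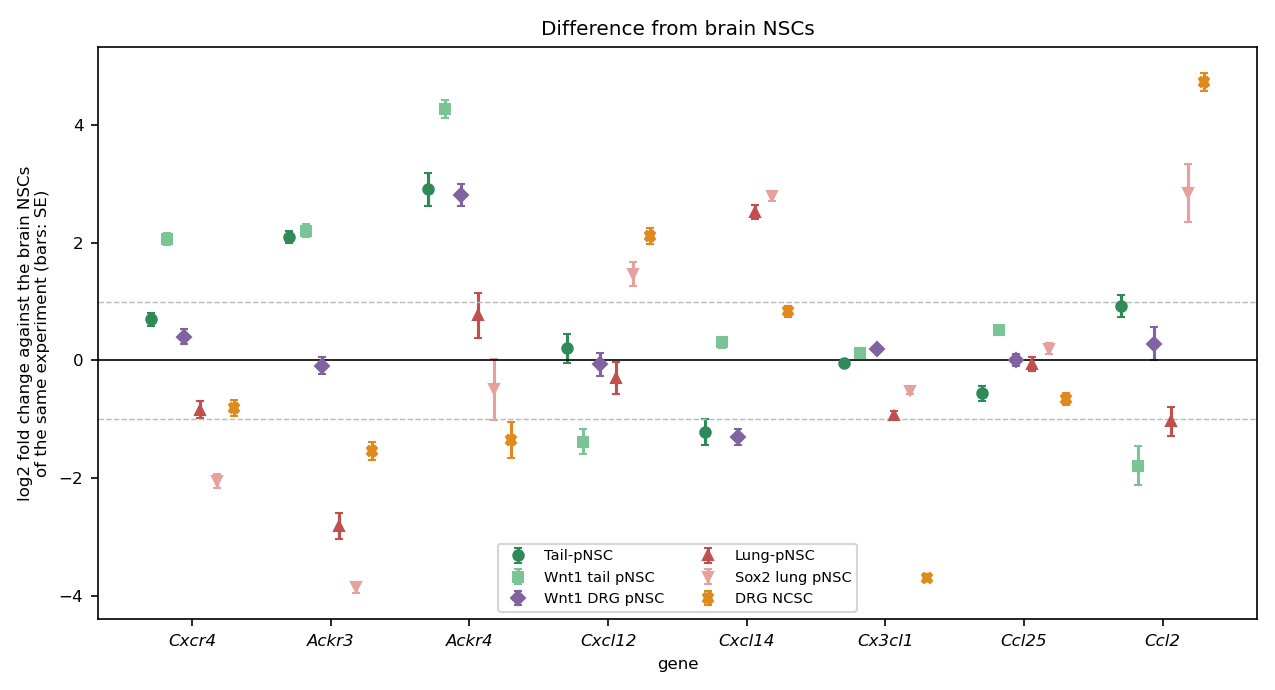
Log2 fold change (± SE, edgeR) of 8 chemokine and receptor genes against the brain NSCs of the same experiment. Each pNSC group and the DRG NCSCs are shown, with dashed lines at -1 and 1. *Ackr3* is above 1 in both sets of tail pNSCs and below -1 in both sets of lung pNSCs, *Ackr4* is above 1 in tail and DRG pNSCs, and *Cxcl14* is above 1 in both sets of lung pNSCs.

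*Ackr2* (chr9:121898355-121911074, plus strand), a scavenger of inflammatory CC chemokines, was a lung gene here. The Lung samples held 50.8 and 51.4 cpm and the Tail samples 3.37 and 2.74, and the libraries of all cultures, NCSCs included, held 0 to 0.151. No library of cultured cells thus had more than 3 counts. Lung-pNSC had 1 count over its 2 samples against 1759 in Lung, a ratio of Lung to Lung-pNSC of 1992-fold (95% counting interval 357 to 78726). *Ackr1* (chr1:173331886-173333750, minus strand), which binds inflammatory chemokines on red cells and venules, had 7.02 and 7.59 cpm in Tail, 6.58, 6.24 and 8.39 in NCSCs and 0.272 and 0.499 in Lung, and its exons overlap those of *Cadm3* on the same strand. In Wnt1Cre-mTmG DRG pNSCs it was at 0.763, 0.788 and 1.35 cpm against 0.268, 0.387 and 0.507 in brain NSCs (log2 fold change 1.28, SE 0.45, adjusted p = 0.0291). That call was lost without brain NSC replicate 1 (1.07, adjusted p = 0.106), brain NSC replicate 2 (1.28, adjusted p = 0.0669) or DRG pNSC replicate 3 (0.97, adjusted p = 0.143). In the NCSCs *Ackr1* exceeded the same brain NSCs by 4.16 (SE 0.28, adjusted p = 2.14e-10).

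*Ccl2* (chr11:82035571-82037453, plus strand), a main attractant of monocytes, had counts in all 28 samples. The NCSCs stood far above the rest at 60.5, 60.7 and 64.01 cpm. They exceeded Wnt1Cre-mTmG brain NSCs, at 2.77, 1.55 and 2.62 cpm, by a log2 fold change of 4.73 (SE 0.16, adjusted p = 8.53e-15). The NCSC samples also held the leukocyte, microglia and fibroblast marker sums given above, and their part in this was not tested. Tail held 4.55 and 3.70 cpm and Lung 4.84 and 5.18. Among stem cell cultures the level was low and uneven: 3.80 and 3.22 cpm in Brain-NSC, 6.11 and 7.15 in Tail-pNSC, 1.992 and 1.40 in Lung-pNSC, 0.0576, 0.216 and 0.0574 in Sox2-GFP brain NSCs, 0.957, 0.651 and 1.11 in Sox2-GFP lung pNSCs, 0.568, 0.598 and 0.855 in Wnt1Cre-mTmG Tail pNSCs and 2.97, 1.48 and 4.04 in Wnt1Cre-mTmG DRG pNSCs.

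The direction of *Ccl2* against brain NSCs was not the same across experiments. It was higher in Sox2-GFP lung pNSCs (log2 fold change 2.85, SE 0.49, adjusted p = 1.32e-08) and lower in Lung-pNSC (log2 fold change -1.04, SE 0.25, adjusted p = 0.000147). The latter fell short of the limit without Brain-NSC replicate 1 (-0.91, adjusted p = 0.00837) or Lung-pNSC replicate 2 (-0.83, adjusted p = 0.0168). It was lower in Wnt1Cre-mTmG Tail pNSCs (log2 fold change -1.79, SE 0.33, adjusted p = 0.000153) and not called in Tail-pNSC (log2 fold change 0.92, SE 0.19, adjusted p = 5.43e-06), which passed the limit without Tail-pNSC replicate 1 (1.03, adjusted p = 1.64e-05) or Brain-NSC replicate 1 (1.05, adjusted p = 4.12e-05). The DRG pNSCs were not called (log2 fold change 0.28, SE 0.28, adjusted p = 0.449).

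*Ccl7* (chr11:82045712-82047525, plus strand) and *Ccl11* (chr11:82057823-82062955, plus strand), attractants of monocytes and of eosinophils, are the next genes along chromosome 11 after *Ccl2*, on the same strand. *Ccl11* was at 18.6, 20.5 and 16.6 cpm in NCSCs, 5.06 and 5.36 in Tail and 1.58 and 0.873 in Lung, and at 0 to 0.253 in the NSC and pNSC libraries. *Ccl7* was at 6.99, 5.29 and 8.74 cpm in NCSCs, 3.03 and 4.15 in Tail, 3.42 and 2.06 in Lung and 0 to 0.710 in the NSC and pNSC libraries. All 3 neighbours were thus highest in NCSCs, and against Wnt1Cre-mTmG brain NSCs *Ccl11* and *Ccl7* were higher by 7.20 (SE 0.33, adjusted p = 8.39e-12) and 5.48 (SE 0.40, adjusted p = 8.54e-10). The further genes of this cluster, *Ccl12* and *Ccl8*, peaked at 1.60 cpm in Lung and 0.986 in NCSCs.

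The neutrophil attractants *Cxcl1* and *Cxcl2*, whose promoters are printed above, were absent or nearly so from the stem cell cultures. *Cxcl1* was at 56.1 and 53.5 cpm in Tail, 16.9, 16.6 and 14.05 in NCSCs and 3.48 and 2.87 in Lung, against 0 to 0.253 in the NSC and pNSC libraries. Tail exceeded Lung by 4.16 (SE 0.13, adjusted p = 5.64e-217), and the NCSCs exceeded Wnt1Cre-mTmG brain NSCs, with 6 counts over 3 samples, by 6.42 (SE 0.28, adjusted p = 4.69e-12). *Cxcl2* was at 12.1 and 10.6 cpm in Tail, 7.64, 7.47 and 5.30 in NCSCs and 4.57 and 2.49 in Lung, and all 21 NSC and pNSC libraries had 0 counts. The NCSCs were at least 23.5-fold higher than Wnt1Cre-mTmG brain NSCs, taking 3 counts per library as the floor. *Cxcl5*, another of the group, was at 7.50, 8.04 and 9.91 cpm in NCSCs, 0.843 and 0.957 in Tail and 1.14 and 0.811 in Lung. Tail-pNSC had 14 counts of it against 1 in Brain-NSC, a ratio of 15.1-fold (95% counting interval 2.30 to 639.8), called at 3.59 (SE 1.15, adjusted p = 0.00454) but not without Brain-NSC replicate 2 (2.73, adjusted p = 0.0888).

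*Cxcl10* (chr5:92346638-92348889, minus strand), an interferon-induced attractant of T cells, was at 19.4, 18.8 and 18.6 cpm in NCSCs, 3.37 and 3.77 in Tail and 1.90 and 1.43 in Lung. The NSC and pNSC libraries held 0 to 0.787 cpm, with counts in all but 1 library. The NCSCs exceeded Wnt1Cre-mTmG brain NSCs by 6.67 (SE 0.29, adjusted p = 3.96e-13). At the low levels of the cultures, Wnt1Cre-mTmG Tail pNSCs (0.787, 0.552 and 0.503 cpm) were called above their brain NSCs (0.0893, 0 and 0.422 cpm) at 1.75 (SE 0.60, adjusted p = 0.0167). This was lost without Tail pNSC replicate 1 (1.52, adjusted p = 0.0575), brain NSC replicate 1 (1.43, adjusted p = 0.0779) or brain NSC replicate 2 (1.23, adjusted p = 0.076). Lung-pNSC had 2 counts against 17 in Brain-NSC, a ratio of Brain-NSC to Lung-pNSC of 8.24-fold (95% counting interval 1.96 to 73.5). That call (log2 fold change -2.89, SE 0.94, adjusted p = 0.0068) was lost without Brain-NSC replicate 1 (-2.37, adjusted p = 0.119) or Lung-pNSC replicate 1 (-2.78, adjusted p = 0.0719). Its exons overlap those of *Art3* on the opposite strand.

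**Figure D4:**
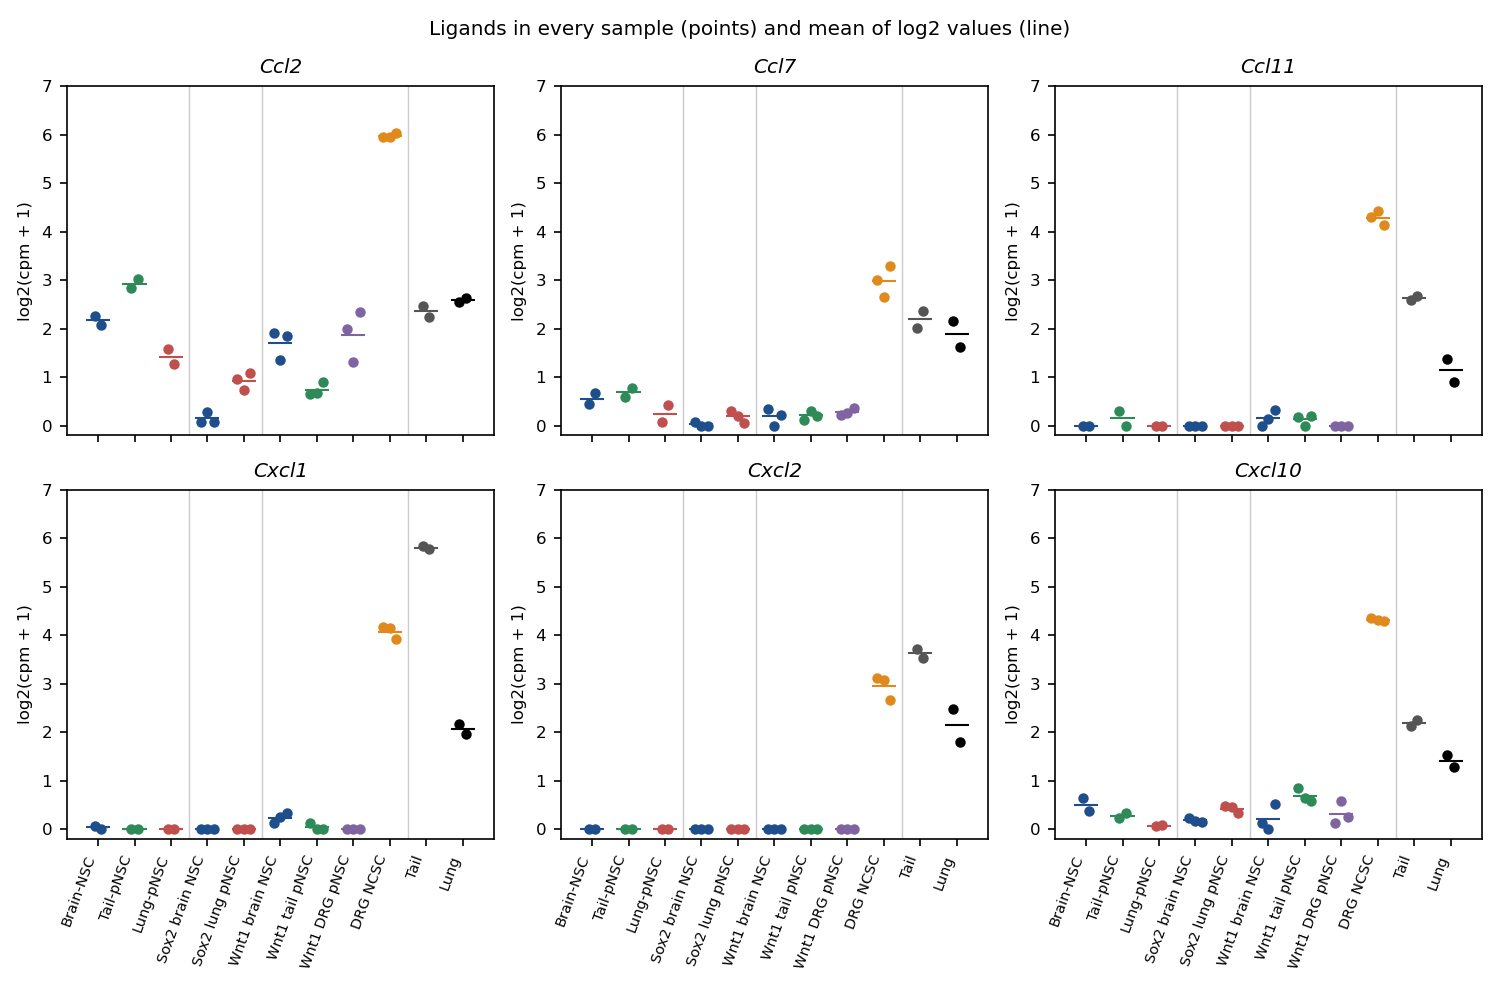
Level of the inflammatory ligands *Ccl2*, *Ccl7*, *Ccl11*, *Cxcl1*, *Cxcl2* and *Cxcl10* in the 11 groups as log2(cpm + 1). Points are samples and the line is the mean of the log2 values over 2 or 3 samples. The DRG NCSC samples are high for all 6 genes, the NSC and pNSC samples lie near 0 for 5 of them, and *Cxcl1* and *Cxcl2* are highest in Tail.

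*Cxcl16* (chr11:70453983-70459984, minus strand), a membrane-held ligand of macrophages and dendritic cells, was at 74.96 and 71.96 cpm in Lung, 11.6, 11.9 and 13.00 in NCSCs and 5.73 and 8.998 in Tail, against 0.101 to 0.760 in the NSC and pNSC libraries. Its exons overlap those of *Zmynd15* on the opposite strand. The NCSCs exceeded Wnt1Cre-mTmG brain NSCs by 4.41 (SE 0.21, adjusted p = 1.83e-12). Its receptor gene *Cxcr6* stood at 5.33 and 5.18 cpm in Lung and 0 to 0.304 in the NSC and pNSC libraries.

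The next ligands were confined mainly to Lung. *Cxcl15* (chr5:90794534-90803067, plus strand), or lungkine, a product of the airway epithelium, was at 1371 and 1405 cpm in Lung and 0.674 and 0.830 in Tail, and the 24 libraries of cultured cells held 1 count in all. *Cxcl17*, a mucosal chemokine, was at 9.95 and 13.9 cpm in Lung, 0 and 0.0638 in Tail and 0 to 0.0507 in the cultures. The lung epithelial marker sum was 30842 to 31564 cpm in Lung, 360.2 to 366 in Tail and 8.51 to 61.8 in the cultures. In contrast with *Cxcl14*, these ligands were at or near 0 in both sets of lung pNSCs. *Cxcl15* had 0 counts in all 5 libraries of lung pNSCs and was at least 8286-fold lower in Lung-pNSC than in Lung.

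Ligands of macrophages, dendritic cells and T cells were also highest in Lung. *Ccl6* was at 178 and 174 cpm in Lung, 2.19 and 2.49 in Tail and 1.34, 1.51 and 1.81 in NCSCs, and at 0 to 0.400 in the NSC and pNSC libraries. Its neighbour *Ccl9* was at 18.6 and 16.5 cpm in Lung, 3.03 and 2.11 in Tail and 6.20, 5.39 and 5.25 in NCSCs, and at 0 to 0.114 in those libraries. *Ccl5*, made by T cells and NK cells, was at 28.1 and 25.4 cpm in Lung, 0.169 and 0.0638 in Tail and 0.324, 0.567 and 0.466 in NCSCs, and at 0 to 0.139 in the rest. *Ccl22*, made by dendritic cells and macrophages, was at 15.3 and 12.3 cpm in Lung and at most 0.233 in any other library. Each was called lower in Lung-pNSC than in Lung, with a log2 fold change of -10.69 (SE 0.16, adjusted p too small to be represented) for *Ccl6*, a ratio of Lung to Lung-pNSC of 229-fold (95% counting interval 78.04 to 1114) for *Ccl9* on 3 counts in Lung-pNSC, while *Ccl5* and *Ccl22* had 0 counts in Lung-pNSC and were at least 159.7-fold and 82.6-fold lower. The leukocyte marker sums, highest in Lung, moved with these genes and their part was not tested.

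The receptors of leukocytes had next to no counts in neural stem cells. The 5 genes summed here are *Ccr1* and *Ccr2* of monocytes and macrophages, *Ccr7* of dendritic cells and T cells, *Cx3cr1* of microglia and monocytes and *Cxcr2* of neutrophils. Their summed level was 133 and 138 cpm in Lung, 19.1, 22.1 and 18.3 in NCSCs, 13.6 and 16.8 in Tail and 0 to 0.0985 in the 21 libraries of NSCs and pNSCs. The order of the groups by receptors and by the leukocyte marker sum was the same for Lung, NCSCs and Tail.

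**Figure D5:**
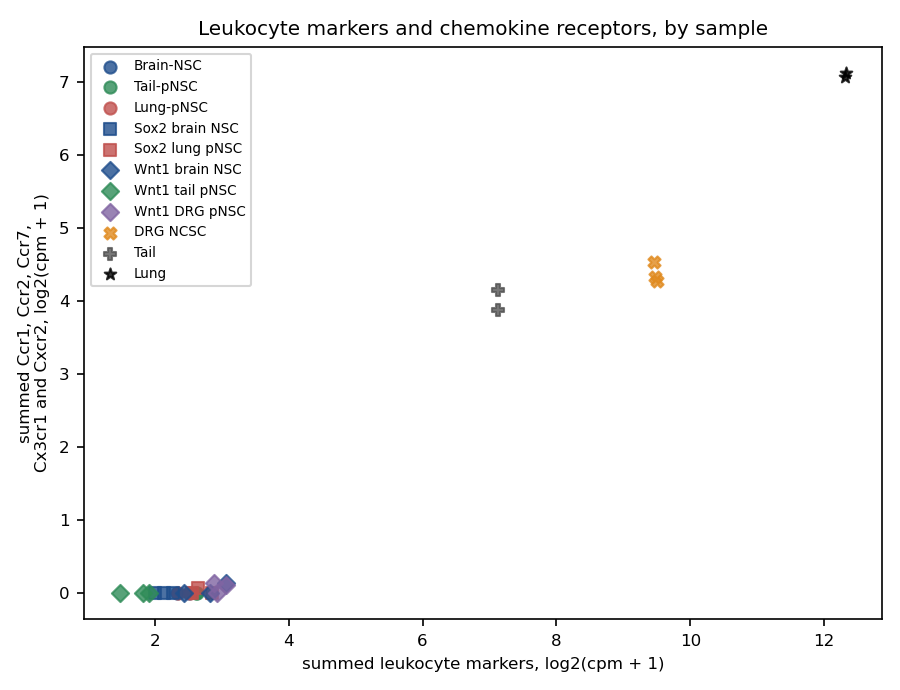
Summed level of *Ccr1*, *Ccr2*, *Ccr7*, *Cx3cr1* and *Cxcr2* against the summed level of 17 leukocyte markers, both as log2(cpm + 1), with 1 point for each of the 28 samples. The NSC and pNSC samples lie at the lower left, the Tail and DRG NCSC samples in the middle and the Lung samples at the upper right, and Tail and DRG NCSCs have similar receptor sums at different marker sums.

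Taken singly, the receptors differed in their order over the groups, and Tail was not tested against NCSCs. *Cx3cr1* was at 28.8 and 27.4 cpm in Lung, 15.6, 18.6 and 16.1 in NCSCs and 4.77 and 7.85 in Tail, with 0 counts in all 21 NSC and pNSC libraries. The NCSCs were at least 57.8-fold higher than Wnt1Cre-mTmG brain NSCs. *Ccr2* was at 55.2 and 58.3 cpm in Lung, 2.04, 1.80 and 1.63 in NCSCs and 2.92 and 3.38 in Tail. It was thus far highest in Lung, and the NSC and pNSC libraries held at most 0.0967 cpm of it.

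The other 3 receptors were low or nearly missing in NCSCs too. *Cxcr2* was at 11.2 and 10.4 cpm in Lung, 2.64 and 1.98 in Tail and 0, 0.0473 and 0 in NCSCs, and at 0 in the other cultures. *Ccr1* was at 12.4 and 14.1 cpm in Lung, 3.15 and 3.45 in Tail and 1.39, 1.51 and 0.525 in NCSCs, also with 0 counts in the other cultures. *Ccr7* was at 25.4 and 27.6 cpm in Lung, 0.112 and 0.128 in Tail and 0.139, 0.0946 and 0.0583 in NCSCs, and at 0 to 0.0985 elsewhere. Outside Lung it thus reached at most 0.139 cpm. In Tail-pNSC against Tail it was called on 0 against 4 counts, and that call was lost when any 1 of the 4 samples was left out, with adjusted p from 0.0534 to 0.105.

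Of the 20 members that peaked between 1 and 10 cpm, 14 were highest in Lung, and they include the lymphocyte receptors *Cxcr5*, *Cxcr3* and *Ccr6*, *Cxcr1*, *Ccr3*, *Ccr9* and *Cxcr6*, and the ligands *Ccl3*, *Ccl4*, *Ccl12*, *Ccl17*, *Ccl27a*, *Cxcl9* and *Cxcl13*. Their Lung means ran from 1.13 cpm for *Cxcl9* to 9.20 cpm for *Cxcr5*. *Ccr4*, *Ccl20* and *Ackr1* were highest in Tail, *Ccl7* and *Cxcl5* in NCSCs and *Ccl28* in Brain-NSC. *Ccl20*, a ligand made by keratinocytes among other epithelia, had 2.92 and 3.19 cpm in Tail and 0 counts in Lung, at least 16.3-fold higher, and 5 of 5 keratinocyte markers were higher in Tail.

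*Ccl28* (chr13:119623819-119654359, plus strand), a mucosal ligand of Ccr10 and Ccr3, differed widely among stem cell cultures. Brain-NSC held 2.94 and 2.78 cpm and Sox2-GFP brain NSCs 2.19, 2.42 and 2.01, while Wnt1Cre-mTmG brain NSCs had 1 count over 3 samples. Tail-pNSC, at 0.457 and 0.304 cpm, and Lung-pNSC, at 0 and 0.167, were below Brain-NSC with a log2 fold change of -2.90 (SE 0.42, adjusted p = 3.27e-11) and -5.10 (SE 0.57, adjusted p = 5.93e-18). With 3 counts in Lung-pNSC against 115 in Brain-NSC, the ratio of Brain-NSC to Lung-pNSC was 37.1-fold (95% counting interval 12.4 to 183). The Sox2-GFP lung pNSCs, at 2.25, 1.998 and 2.58 cpm, were not called (log2 fold change 0.03, SE 0.20, adjusted p = 0.93). In the Wnt1Cre-mTmG experiment the direction was the opposite: Tail pNSCs held 1.27, 1.29 and 1.36 cpm and DRG pNSCs 1.19, 2.27 and 2.5, ratios of 43.5-fold (95% counting interval 7.59 to 1737) and 64.98-fold (95% counting interval 11.2 to 2607) over brain NSCs. The NCSCs held 1.94, 1.37 and 1.63 cpm, Tail 0.225 and 0.383 and Lung 1.03 and 1.06. Sox2-GFP lung pNSCs were above Lung by 1.10 (SE 0.28, adjusted p = 9.7e-05), which came to 1.00, adjusted p = 0.0015 and just missed the limit without lung pNSC replicate 3.

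Other calls among the low members rested on few counts. In Lung-pNSC against Brain-NSC *Ccl17* (4 against 17 counts) and *Ccl27a* (0 against 6) were lower, with adjusted p of 0.0445 and 0.0377. Both calls were lost when Brain-NSC replicate 2 or either Lung-pNSC replicate was left out, with adjusted p from 0.135 to 0.317 and from 0.141 to 0.179. Blocking on the replicate number ended both as well (adjusted p = 0.0763 and 0.0526), and *Ccl17* was lost in DESeq2 (adjusted p = 0.115) and without the filter on low counts (adjusted p = 0.0621). In Sox2-GFP lung pNSCs *Ccl7* (9 against 1 count) was called higher and *Ccl27a* (15 against 29) lower than in brain NSCs. *Ccl7* lost the call without brain NSC replicate 2 or 3 or lung pNSC replicate 1 or 2, with adjusted p from 0.0534 to 0.182. *Ccl27a* lost it without the same brain NSC replicates or lung pNSC replicate 2 or 3, with adjusted p from 0.061 to 0.173, and also with the replicate block (0.0501), without the filter (0.0509) and in DESeq2 (0.0692). In Wnt1Cre-mTmG DRG pNSCs *Cxcl1* had 0 against 6 counts and lost its call (adjusted p = 0.0337 in edgeR) without brain NSC replicate 2 or 3 or any DRG pNSC replicate, with adjusted p from 0.065 to 0.0933. *Ccl27a* has near-identical copies in *Ccl27* and *Ccl27b*, whose counts were 0, and its exons overlap those of *Il11ra1*.

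The 9 members that stayed below 1 cpm were *Ccl1*, *Ccl8*, *Ccl19*, *Ccl21b*, *Ccl24*, *Ccr8*, *Ccr10*, *Cxcl3* and *Cxcl11*. Among them *Ccr10*, the receptor of Ccl27 and Ccl28, had counts in all 28 samples, with group means of 0.279 to 0.926 cpm. The 5 members without a count were *Ccl21a*, *Ccl21c*, *Ccl26*, *Ccl27* and *Ccl27b*. The *Ccl21* and *Ccl27* copies are nearly identical, so that a value of 0 may reflect how shared reads were counted.

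The same contrast could be compared between experiments, since lung pNSCs and tail pNSCs were each measured against separate brain NSCs in 2 experiments with different reporters. The difference of differences was tested over all 28 samples. For lung, 8 of 50 tested members differed between Lung-pNSC and Sox2-GFP lung pNSCs, where 14.1% of all genes did. With only the groups compared in the fit, 5 members differed. For tail, 8 of 50 tested members differed between Tail-pNSC and Wnt1Cre-mTmG Tail pNSCs, where 16.0% of all genes did. Both counts lay near the share of all genes. *Ackr3* was called in the same direction in both experiments of each tissue, *Ackr4* in both of tail, and *Cxcl14* and *Ccl27a* in both of lung, where *Ccl27a* rested on few counts. For *Ackr3* the difference between experiments was not called in tail (log2 fold change -0.10, SE 0.17, adjusted p = 0.696). In lung the fall was larger in the Sox2-GFP experiment (log2 fold change 1.05, SE 0.34, adjusted p = 0.0104), a call lost without Lung-pNSC replicate 2 (0.77, adjusted p = 0.196) and short of the limit without Sox2-GFP lung pNSC replicate 1 (0.99, adjusted p = 0.0184). For *Cxcl14* in lung the difference was -0.26 (SE 0.18, adjusted p = 0.254).

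The members lie partly in clusters in the genome (GENCODE M21, GRCm38), which the choice by name did not use. *Ccl2*, *Ccl7*, *Ccl11*, *Ccl12* and *Ccl8* lie between chr11:82035571-82037453 and chr11:82115185-82116799, and *Ccl5*, *Ccl9*, *Ccl6*, *Ccl3* and *Ccl4* between chr11:83525778-83530518 and chr11:83662584-83664683. The first of these clusters was highest in NCSCs for 4 of its 5 genes and the second highest in Lung for all 5. On chromosome 8, *Ccl22* (chr8:94745590-94751699), *Cx3cl1* (chr8:94772009-94782427) and *Ccl17* (chr8:94810453-94812036) are neighbours with unlike patterns. *Cx3cl1* was the leading member in most stem cell cultures, *Ccl22* was seen in Lung alone above 1 cpm, and *Ccl17* had 0.103 to 0.958 cpm in the NSC and pNSC groups. On chromosome 9, *Ccr1*, *Ccr3* and *Ccr2* lie between chr9:123962124-123968692 and chr9:124101950-124113557, and all 3 were highest in Lung.

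Between pNSCs and brain NSCs, 2 to 12 of the other genes of the pathway were called in a comparison. A list of 39 genes held G proteins, kinases, arrestins, small GTPases and other signalling genes, the chemokines outside the naming rule, and genes whose products bind or cut chemokines. Against brain NSCs, 3 of 38 tested were higher and 2 lower in Tail-pNSC, 1 and 1 in Lung-pNSC, 3 and 4 in Sox2-GFP lung pNSCs, and, of 33 tested, 6 and 6 in Wnt1Cre-mTmG Tail pNSCs and 0 and 4 in Wnt1Cre-mTmG DRG pNSCs. Of all genes, 4.31% were higher and 6.59% lower in Tail-pNSC, 4.56% and 4.15% in Lung-pNSC, 5.76% and 9.99% in Sox2-GFP lung pNSCs, 9.16% and 9.05% in Wnt1Cre-mTmG Tail pNSCs and 3.12% and 6.41% in Wnt1Cre-mTmG DRG pNSCs. These shares apply to both gene lists given here. NCSCs gave 15 higher and 1 lower of 33, where 22.1% of all genes were higher and 14.8% lower. The median log2 fold change was 0.51 over the list and 0.01 over all genes. Genes of this list also passed the filter through the NCSCs, with 34 of the 39 over the floor there against 24 in Wnt1Cre-mTmG brain NSCs. Nothing is therefore read from the count or the median against all genes. Among the higher genes was the heparan sulphate proteoglycan *Hspg2*, by 4.88 (SE 0.06, adjusted p = 1.7e-20). Of 32 genes of NF-kB and inflammatory cytokines, 26 were tested in the Wnt1Cre-mTmG experiment. In NCSCs 21 were higher and 1 lower than in brain NSCs, with a median of 1.78 over the list. These genes too passed the filter partly through the NCSCs, with 28 of the 32 over the floor there against 22 in Wnt1Cre-mTmG brain NSCs. Neither this count nor this median is read against all genes. Markers of other cells were higher in the same comparison, with 10 of 10 tested leukocyte, 7 of 7 microglia and 8 of 9 fibroblast markers, and their part in the counts of both lists was not tested. *Nfkb1*, an NF-kB subunit, was higher by 1.46 (SE 0.05, adjusted p = 1.95e-14) and *Csf1*, a macrophage growth factor, by 1.88 (SE 0.06, adjusted p = 8.13e-15). The same list gave 1 higher and 3 lower of 31 in Tail-pNSC, 5 and 2 in Lung-pNSC, 3 and 4 in Sox2-GFP lung pNSCs, 2 and 8 of 26 in Wnt1Cre-mTmG Tail pNSCs and 0 and 6 in Wnt1Cre-mTmG DRG pNSCs, all against brain NSCs. Against tissue cells 25 of 31 were lower in Tail-pNSC, 30 in Lung-pNSC and 27 in Sox2-GFP lung pNSCs, and none was higher. Of all genes, 32.6%, 34.9% and 34.9% were lower there, but genes of this list also passed the filter through the tissue samples, with 30 of the 32 over the floor in Tail and 31 in Lung against 17 or 18 in these pNSCs, so that nothing is read from this difference. The leukocyte markers fell with the list, with 16 of 17 lower in Tail-pNSC and 17 of 17 in both sets of lung pNSCs, and their part was not tested.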

How the data were processed

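PolyA-selected RNA of 28 samples was sequenced single-end on a NextSeq500 after NEBNext Ultra library preparation. The authors aligned reads to GRCm38 with HISAT2 2.2.1, used Cufflinks 2.2.1 for annotation and htseq-count 1.99.2 for counting. The table they deposited holds whole-number counts, not normalized, of 28244 genes. The strand setting, counting mode and annotation release are not given in the sources used here, so reads of overlapping genes on opposite strands, and of near-identical copies, may be mixed or lost. The tools and build are credited to the submitters' processing notes and the methods. The labels gave the groups and the replicate numbers. The members and gene lists were chosen with earlier results of these data known.

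Counts were tested in R 4.3.3 with edgeR 4.0.16: filterByExpr (minimum count 10, minimum total 15), TMM scaling and a two-sided quasi-likelihood test, fitted over all groups of an experiment (16948, 14448 and 16234 genes in the Nes-GFP, Wnt1Cre-mTmG and Sox2-GFP experiments). The fit of the Sox2-GFP experiment included the 2 Lung samples. Differences between experiments were tested as a difference of differences in 1 fit of 28 samples (17393 genes). P-values were adjusted by Benjamini-Hochberg over all genes tested. Where a group had no count, the fold is a lower bound against a floor of 3 counts per library, and with 1 to 3 counts a ratio with its 95% exact counting interval is given. Intervals and floors cover counting error only. Levels per kilobase used the exon length of GENCODE M21.

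Members reaching a group mean of 10 cpm are given with the value of every sample, or the range over cultures at or near 0, members between 1 and 10 cpm with ranges and calls, and the rest by name. The values of 1 member are not reported here. Alternatives were DESeq2 1.42.0, upper-quartile scaling, no filter, only the groups compared, the replicate number as a block, no limit on the fold change, and fits that left out 1 replicate at a time. The pipeline was tested on simulated counts with 200 changed genes. It recovered 198 in Tail-pNSC against Brain-NSC (16230 genes, 17 false calls), 198 in Wnt1Cre-mTmG Tail pNSCs against brain NSCs (14052 genes, 11), 198 in Sox2-GFP lung pNSCs against brain NSCs (15694 genes, 10) and 193 in the lung difference of differences (16253 genes, 14). These totals were not split by the counts of a gene or by the size of its change. Nothing is therefore read from them for member calls that rest on few counts or lie close to a threshold. Figures were drawn with matplotlib 3.10.9 in Python 3.11.15.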

Additional observations from a re-analysis of the deposited data

Results flagged for a closer look

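For the 15 results given here the effect of pNSCs against brain NSCs differed between 2 experiments in an edgeR test of the difference of differences over 28 samples, with adjusted p under 0.05 and a log2 difference of at least 1 in size. Each value is the log2 fold change of the Nes-GFP experiment minus that of the other one. In each tissue 8 of 50 tested members differed, near the share of all genes, which was 14.1% for lung and 16.0% for tail. For lung pNSCs, against the Sox2-GFP experiment, the ligands stood lower in the Nes-GFP experiment: *Ccl2* at -3.87 (SE 0.57, adjusted p = 4.28e-07), *Ccl28* at -5.13 (SE 0.57, adjusted p = 8.65e-10), *Ccl7* at -3.94 (SE 1.46, adjusted p = 0.0249), *Cxcl10* at -4.13 (SE 1.00, adjusted p = 0.000673) and *Cxcl12* at -1.76 (SE 0.28, adjusted p = 2.32e-06). The receptors stood higher: *Cxcr4* at 1.23 (SE 0.19, adjusted p = 1.1e-06) and *Ackr3* at 1.05 (SE 0.34, adjusted p = 0.0104). *Ccl7* had 1 count in the Sox2-GFP brain NSCs and lost its call without any of 5 libraries taken singly (Brain-NSC replicate 2, Lung-pNSC replicate 1, Sox2-GFP brain NSC replicate 2 or 3, Sox2-GFP lung pNSC replicate 1), with adjusted p from 0.0627 to 0.111. *Ackr3* was at 0.77, adjusted p = 0.196 without Lung-pNSC replicate 2.

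For tail pNSCs, against the Wnt1Cre-mTmG experiment, *Ackr4* was at -1.37 (SE 0.40, adjusted p = 0.0044), *Cxcr4* at -1.36 (SE 0.16, adjusted p = 1.88e-09), *Cxcl14* at -1.52 (SE 0.24, adjusted p = 1.21e-06), *Ccl25* at -1.07 (SE 0.14, adjusted p = 7.09e-08), *Cxcl10* at -2.70 (SE 0.83, adjusted p = 0.0064) and *Ccl28* at -8.05 (SE 0.75, adjusted p = 1.47e-11), all lower in the Nes-GFP experiment. *Ccl2* at 2.72 (SE 0.37, adjusted p = 6.64e-08) and *Cxcl12* at 1.59 (SE 0.28, adjusted p = 2.39e-05) were higher in it. The value of *Ccl28* rests on brain NSCs that held 115 counts in the Nes-GFP and 1 in the Wnt1Cre-mTmG experiment. *Cxcl10* lost its call without Brain-NSC replicate 1 (-2.17, adjusted p = 0.0782), and *Ccl25* fell short of the limit on the fold change without Tail-pNSC replicate 2 (-0.97, adjusted p = 6.31e-06) or Brain-NSC replicate 2 (-0.99, adjusted p = 4.02e-06). The experiments differed in reporter, in brain NSC cultures and, for lung, in age, which cannot be told apart.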

How the results depend on the processing

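Of 305 tested results for named members, 267 kept their direction and side of the threshold under every alternative in which they were still tested. A call was lost under at least 1 alternative by 27, 4 gained one and 7 changed sign. The number of members called moved by over 1.5 times in 4 comparisons. It was 8 in Tail-pNSC against Brain-NSC with no limit on the fold change, 4 in Lung-pNSC against Brain-NSC and 3 in Wnt1Cre-mTmG DRG pNSCs against brain NSCs with only the groups compared, and 5 in the lung difference of differences with only the groups compared. With only the groups compared, the filter on low counts was applied to fewer samples, and genes that it removed were not tested. The results still tested there comprised 281 that stayed the same and 2 that changed sign. With a replicate left out, the number called ran from 4 to 7 in Tail-pNSC and from 5 to 7 in Lung-pNSC against Brain-NSC, 29 to 34 in Tail-pNSC against Tail, 45 to 48 in Lung-pNSC against Lung, 37 to 39 in Tail against Lung, 6 to 7 in Wnt1Cre-mTmG Tail pNSCs and 3 to 4 in DRG pNSCs against brain NSCs, 21 to 25 in NCSCs against brain NSCs, 22 to 25 and 22 to 26 in Tail and DRG pNSCs against NCSCs, 5 to 8 in Sox2-GFP lung pNSCs against brain NSCs, 42 to 46 against Lung, and 6 to 8 and 7 to 8 in the lung and tail differences of differences.

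All sign changes were of values that were not called. *Ccl25* in Tail against Lung turned to 0.0137 without the filter, 0.0019 with only the groups compared, and ran from -0.14 to 0.14 with a replicate left out (0.0975 without Tail replicate 1). *Ccl25* in Lung-pNSC against Brain-NSC ran from -0.16 to 0.036, with 0.013 without Brain-NSC replicate 2. In DRG pNSCs against brain NSCs *Ccl25* turned to -0.013 under upper-quartile scaling, -0.019 without the filter, -0.0096 in DESeq2, -0.021 with only the groups compared, and ran from -0.025 to 0.0315 with a replicate left out (-0.020 and -0.012 without DRG pNSC replicate 2 or 3). There, with a replicate left out, *Ackr3* ran from -0.24 to 0.085, *Cxcl12* from -0.18 to 0.045 (0.018 without DRG pNSC replicate 2) and *Ccl2* from -0.042 to 0.57. *Ackr3* in the tail difference of differences ran from -0.275 to 0.049, with 0.021 without Tail-pNSC replicate 1.

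In Tail-pNSC against Tail the calls of *Ccr3*, *Cxcl9*, *Cxcl5*, *Ccl12* and *Ccr7* were lost under at least 1 alternative, and DESeq2 lost *Ccr6* in Lung-pNSC against Lung (adjusted p = 0.101) and *Ccl11* in Sox2-GFP lung pNSCs against Lung (adjusted p = 0.104). In Tail against Lung DESeq2 lost *Ccr6* (adjusted p = 0.328) and *Cxcl13* (adjusted p = 0.0776), while *Cxcl12* moved past the limit, from -0.99 to -1.04. There *Ccl28* weakened from -1.73 to -1.37 without Tail replicate 1. *Cxcl10* went from 1.14 to 0.96, under the limit, without Lung replicate 2. Deviations of samples with the same replicate number correlated at -0.011 to 0.0519, and those with other numbers at -0.0514 to 0.0316. With most replicates close to counting noise, such values cannot decide whether samples were paired. With the replicate number as a block, 5 members were called in Tail-pNSC and 5 in Lung-pNSC against Brain-NSC, 33 in Tail-pNSC against Tail, 46 in Lung-pNSC against Lung, 7 and 5 in Wnt1Cre-mTmG Tail and DRG pNSCs against brain NSCs, 23 in NCSCs against brain NSCs, 6 in Sox2-GFP lung pNSCs against brain NSCs, and 8 and 8 in the differences of differences. The floor of 3 counts came to 0.13 to 0.296 cpm per library, and a level below it cannot be told from 0 at this depth.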
